A study of Mus musculus with 48 samples.

Results

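The genes of the AMPA receptor were followed through RNA sequencing of mouse cortex in which synaptosomes were compared with the whole tissue at 3 ages. The 9 genes were Gria1, Gria2, Gria3 and Gria4, which encode the pore-forming subunits, and Cacng2, Cacng3, Cacng8, Cnih2 and Shisa9, which encode auxiliary subunits. They were found by matching the Ensembl identifiers of the count table to gene symbols in mouse GENCODE, and all 9 were present among 48526 genes. The mice were wild-type C57BL/6JRj males of 3 weeks (3w), 5 months (5m) and 18 months (18m), 4 at each age, and the middle age is 6 months in the sample labels but 5 months in the protocol. Every mouse gave 4 libraries, which makes 12 groups of 4. The total homogenate (TH) was the homogenised cortex, and the synaptosomes (SYN), resealed nerve endings with the attached postsynaptic membrane, were taken from a sucrose gradient. From each of them RNA was sequenced directly (input_TH and input_SYN) and after pelleting of ribosomes through a sucrose cushion (SC_TH and SC_SYN). No mouse carried a transgene or received a drug, and cycloheximide, which holds ribosomes on their mRNA, was added to the lysis buffer of the cushion samples.

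AMPA receptors are glutamate-gated cation channels that carry most of the fast excitatory transmission in the brain. Each receptor is an assembly of GluA subunits, encoded by the Gria genes, and the GluA2 subunit from the edited Gria2 mRNA makes the channel nearly impermeable to calcium. Transmembrane AMPA receptor regulatory proteins (TARPs, the Cacng genes), cornichons (Cnih2) and Shisa proteins such as Shisa9, also called CKAMP44, bind the core and alter gating and trafficking. The mRNAs of Gria1 and Gria2 have long been known in dendrites, where local translation of receptor subunits has been studied.

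All 9 genes were well covered, with 137 to 18077 counts in a library. Library totals lay between 9699909 and 13225435 counts in input_TH, 3058278 and 15423546 in SC_TH, 1780267 and 7879536 in input_SYN, and 5341263 and 18590040 in SC_SYN, so input_SYN was the shallowest fraction. Levels are CPM, the counts scaled to a common library size, after TMM scaling over all 48 libraries (TMM CPM). TMM, which equalises the bulk of the genes, used factors from 1.16 to 1.28 in TH and from 0.78 to 0.89 in SYN, a shift of 0.57 on the log2 scale between compartments relative to library size. The summed level of 6 excitatory neuron markers, Slc17a7 among them, was between 1552 and 2347 TMM CPM in input_TH and between 3897 and 5876 in input_SYN. The sum does not stand for each marker, as 2, 3 and 3 of the 6 were called higher and 1, 1 and 0 lower at the 3 ages. Their median log2 differences were 0.14, 0.25 and 0.10. No gene of the 9 marker lists examined was at 0 in all libraries of a group. Reads were counted without regard to strand, and 5.86% of the exonic length of Cacng2 is shared with the antisense gene A730060N03Rik, so its counts can hold reads of that gene.

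The 9 genes differ in build, and the difference recurs below. In GRCm38, Gria2 lies at chr3:80681450-80802835 on the minus strand and has the longest exonic length, 15.55 kb, with 36.8% GC in its longest transcript. Gria1 (chr11:57011387-57330244, plus strand, 6.04 kb, 48.5% GC), Gria3 (chrX:41400854-41678601, plus strand, 9.86 kb, 39.8% GC) and Gria4 (chr9:4417896-4796234, minus strand, 6.3 kb, 44.3% GC) are also long and poor or moderate in GC. At the other end stand Cnih2 (chr19:5092868-5098521, minus strand, 1.37 kb, 62.3% GC) and Cacng8 (chr7:3390683-3415648, plus strand, 2.35 kb, 65.1% GC). Cacng3 (chr7:122670492-122769393, plus strand, 2.78 kb, 54.6% GC), Cacng2 (chr15:77991748-78120028, minus strand, 5.51 kb, 51.2% GC) and Shisa9 (chr16:11984113-12270902, plus strand, 5.24 kb, 47.2% GC) lie between them.

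Per kilobase of exon, Cnih2 and Gria1 were the most abundant mRNAs of the 9 in the homogenate. In input_TH at 5m, the levels per kb were 89.9 TMM CPM for Cnih2, 63.9 for Gria1, 31.8 for Cacng8, 30.6 for Gria2, 20.9 for Gria3, 18.4 for Cacng3, 14.6 for Cacng2, 11.0 for Gria4 and 8.43 for Shisa9. The 4 mice overlapped between Cacng8 and Gria2 and between Gria3 and Cacng3, and the other neighbours in this order were apart in these 4 mice. In SC_SYN at 5m the order began with Gria1 at 216 per kb, Cnih2 at 203 and Cacng8 at 193, which overlapped, and ended with Cacng2 at 24.4, Shisa9 at 21.3 and Gria4 at 21.2, which overlapped too. These levels depend on the annotated length, which counts every exon that any transcript uses.

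Among the 4 pore-forming subunits, Gria1 took the largest share of the summed level per kb in every group, and Gria4 the smallest. The share of Gria1 was 48.8% ± 2.23 (SD, n = 4) in input_TH at 3w, 50.6% ± 1.4 at 5m and 54.4% ± 2.16 at 18m, and in SC_TH it was 48.0% ± 0.7, 54.8% ± 3.0 and 56.9% ± 1.89. In SC_SYN it was 51.4% ± 2.7, 55.9% ± 2.13 and 54.7% ± 2.56 at the 3 ages. The share of Gria2 in SC_TH was 25.1% ± 0.748 at 3w, 21.9% ± 2.54 at 5m and 19.8% ± 1.18 at 18m, and that of Gria4 lay between 5.37% and 9.8% in all groups. Among the TARP genes, Cacng8 made up 44.0% ± 1.86 of the summed level per kb of Cacng2, Cacng3 and Cacng8 in input_TH at 3w, and 73.0% ± 5.06 in SC_SYN at 5m. With the length of the longest transcript in place of all exons, the share of Gria1 in SC_TH was 38.8%, 45.5% and 47.6% at the 3 ages, and Gria3 rather than Gria2 came after Gria1 in SC_TH at 18m (23.1% against 22.8%). Shares are descriptions and were not tested.

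**Figure D1:**
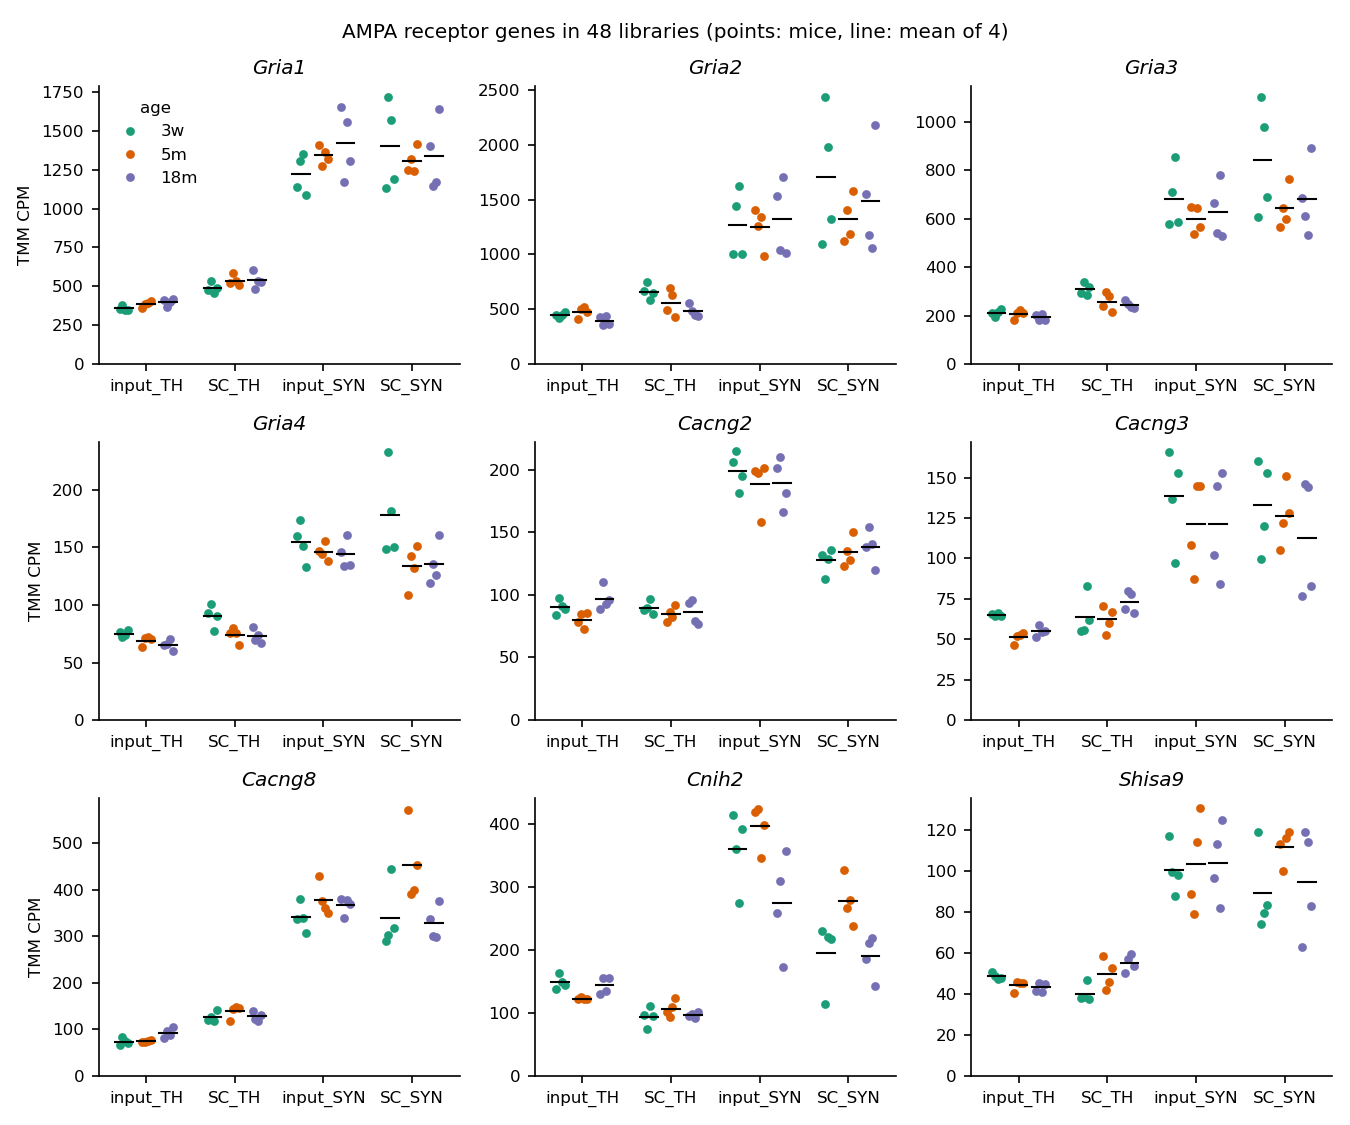
Level of each of the 9 genes in TMM CPM (y axis, from 0) in the 4 fractions (x axis) at 3 ages (colours), with 1 point per mouse and a line at the mean of 4. The synaptosomal libraries of Gria1 sit between 1085 and 1720, all above the homogenate libraries, and the spread between mice is wider in synaptosomes than in homogenate for Gria2.

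The first comparison asks which receptor mRNAs are found in synaptosomes more than in the whole cortex. For Gria1, the 4 mice of input_TH at 5m had 360, 384, 395 and 405 TMM CPM, and those of input_SYN 1410, 1276, 1366 and 1316. Every synaptosomal library was above every homogenate library, and the fitted difference was 1.80 on the log2 scale (SE 0.092, adjusted p = 3.74e-16 by edgeR's quasi-likelihood test), or 3.49-fold. Cacng8, the gene of TARP gamma-8, had the largest fitted difference of the 9 at this age, an order that did not hold once trends on GC content and length were removed (Cacng8 1.82, Gria2 2.33, Gria3 2.30 and Gria1 2.00). Its 4 libraries were at 72.4, 74.1, 74.5 and 77.7 TMM CPM in input_TH at 5m and at 429, 376, 360 and 349 in input_SYN, a difference of 2.35 (SE 0.091, adjusted p = 1.52e-18 by edgeR) or 5.09-fold. Cnih2, whose product slows receptor closing, had 122, 125, 123 and 122 TMM CPM in input_TH at 5m and 420, 424, 347 and 398 in input_SYN, 3.24-fold by the fit.

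Input_SYN exceeded input_TH for all 9 genes at each age (9 of 9 at an adjusted p under 0.05 by edgeR). Calls were common in this contrast: 71.0% of all 17860 genes passed at 3w, 72.7% at 5m and 72.3% at 18m, and those called higher were 31.7%, 32.6% and 32.9% of the genes tested. On the log2 scale, the 3w differences had Gria4 at the bottom (1.05) and Cacng8 at the top (2.22), as did those at 5m (1.09 and 2.35), and at 18m Cnih2 (0.95) was at the bottom and Cacng8 (1.98) at the top. The median of the 9 was 1.28, 1.39 and 1.29 at the 3 ages, against -0.18, -0.18 and -0.12 over all genes tested. Within the family of pore-forming subunits, Gria1, Gria2 and Gria3 had differences between 1.39 and 1.84, and those of Gria4 were 1.05, 1.09 and 1.13. For all 9 genes, every synaptosomal library was above every homogenate library at each age, which held for 27.7%, 29.7% and 27.7% of the genes tested.

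The ribosome pellets gave the same direction for the 9 genes. SC_SYN against SC_TH asks which mRNAs are more frequent among the ribosome-associated RNAs of the synaptosomes. Gria2 had 490, 695, 627 and 428 TMM CPM in SC_TH at 5m and 1120, 1409, 1182 and 1576 in SC_SYN, with no overlap, and differed by 1.27 (SE 0.21, adjusted p = 9.68e-06 by edgeR). Cacng8 had 118, 143, 149 and 147 TMM CPM in SC_TH and 571, 390, 398 and 452 in SC_SYN at 5m, a difference of 1.73 or 3.32-fold (adjusted p = 3.57e-11 by edgeR). The smallest difference at 3w and 5m was that of Cacng2, the gene of stargazin, with 0.55 (SE 0.099, adjusted p = 2.86e-05 by edgeR) and 0.69 (SE 0.097, adjusted p = 9.08e-07). Its 5m libraries had 78.4, 86.1, 82.0 and 91.7 TMM CPM in SC_TH and 123, 135, 128 and 150 in SC_SYN.

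All 9 genes were called higher in SC_SYN at each age, where 63.5%, 67.8% and 62.1% of 16630 genes were called at 3w, 5m and 18m, and 31.1%, 32.1% and 29.9% were called higher. The lowest and highest differences were 0.55 and 1.56 in young mice, 0.69 and 1.73 in adult mice, and 0.65 and 1.67 in old mice. The highest value was that of Gria1 at 3w, of Cacng8 at 5m and of Gria2 at 18m, and the median of the 9 was 1.20, 1.27 and 1.01, against -0.04, -0.09 and -0.07 over all genes. Every SC_SYN library was above every SC_TH library for 9, 9 and 8 of the genes, and for 25.2%, 28.2% and 24.8% of all genes. The exception was Cacng3 at 18m, with 69.0, 79.7, 77.9 and 66.4 TMM CPM in SC_TH and 76.6, 146, 144 and 82.8 in SC_SYN (difference 0.65, SE 0.18, adjusted p = 0.00342 by edgeR). In that last group mice 195 and 198 lay near the homogenate values and mice 196 and 197 far above them.

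**Figure D2:**
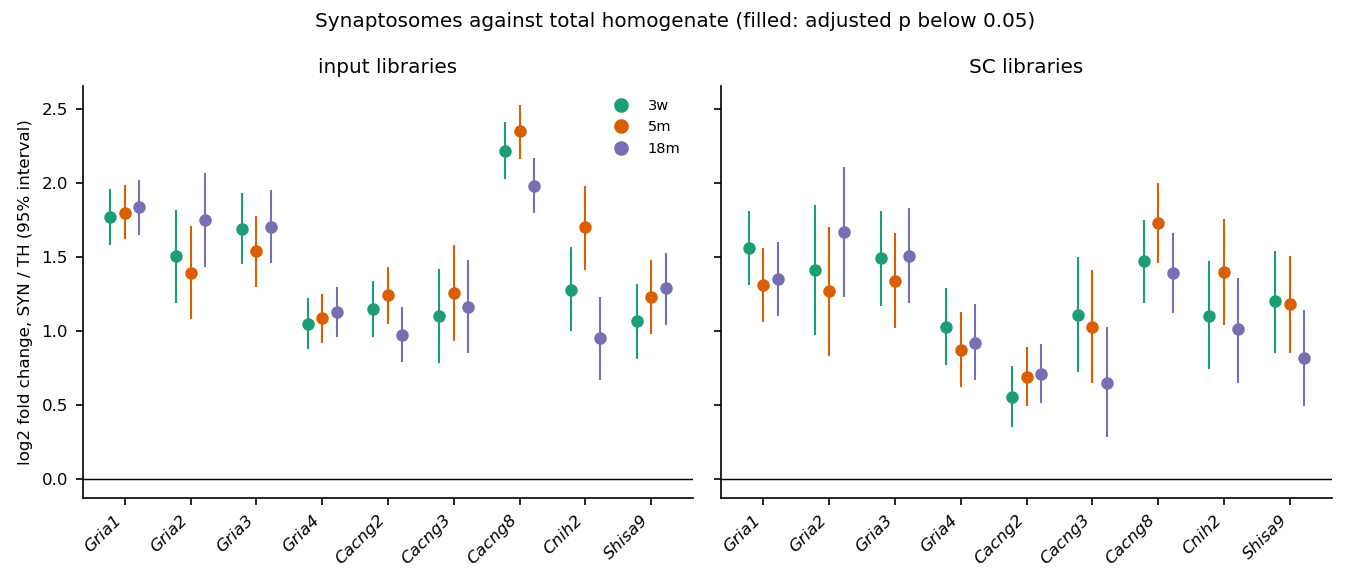
Log2 fold change of SYN over TH (y axis, with its 95% interval) for each gene (x axis) at 3 ages (colours), in input libraries on the left and in ribosome pellets (SC) on the right, with filled points for an adjusted p under 0.05. All points are filled and above 0, from 0.95 to 2.35 in input and from 0.55 to 1.73 in SC.

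The size of these differences rests on the scaling. Under plain library-size scaling, the median of all genes was -0.75, -0.83 and -0.70 in the input contrasts and -0.59, -0.68 and -0.60 in SC, and the genes called higher were 19.7%, 19.4% and 19.4% in input and 18.5%, 18.0% and 14.8% in SC. All 9 genes were then still called higher in input, but in SC 8, 8 and 6 of 9 were. Cacng2 was no longer called at any age (0.01, 0.10 and 0.18), nor were Cacng3 (0.12) and Shisa9 (0.28) at 18m. With trends on GC content and length removed, all 9 genes were called higher in each of the 6 contrasts. Of all genes, 38.9%, 37.9% and 39.7% were then called higher in input and 34.9%, 33.5% and 32.2% in SC. Gria2 reached 2.32, 2.33 and 2.19 in input, Cnih2 was at 0.94, 1.08 and 0.80, and Cacng8 was at 2.06, 1.82 and 2.04. Gria3 at 3w (2.37) and Gria2 at 5m and 18m then had the highest values in input. In SC, Cacng8 moved from 1.73 to 1.10 at 5m and Gria2 from 1.27 to 2.04.

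Markers of other cells and compartments moved in the same contrast. All 6 astrocyte markers were higher in input_SYN at each age and in SC_SYN at each age, with summed levels from 3405 to 4830 TMM CPM in input_TH and from 12362 to 15883 in input_SYN. The 5 nuclear RNAs examined, Malat1 among them, were all lower in input_SYN, with sums from 16187 to 18944 in input_TH and from 1572 to 4218 in input_SYN, and all 5 endothelial markers were lower. Of the 6 microglia markers 5, 6 and 6 were higher at the 3 ages in input_SYN and likewise in SC_SYN, and of the 5 oligodendrocyte precursor markers 5, 5 and 5 in input_SYN and 5, 4 and 4 in SC_SYN. The 6 excitatory neuron markers were divided, as 2, 3 and 3 were higher and 1, 1 and 0 lower in input_SYN, and in SC_SYN 2 were higher at each age and 2, 4 and 4 lower, with medians of -0.25, -0.37 and -0.46. In input_SYN, 5 of 5 RNAs known from dendrites, such as Camk2a and Shank1, were higher at each age. The part of these lists in the result was not tested, and in such bulk libraries a gain of synaptic or glial fragments and more RNA per fragment cannot be told apart.

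The next comparison sets the ribosome pellet against its own input and asks how the share of an mRNA changes on pelleting. In the homogenate, Cacng8 and Gria1 were higher in the pellet at each age. Cacng8 had 72.4, 74.1, 74.5 and 77.7 TMM CPM in input_TH at 5m against 118, 143, 149 and 147 in SC_TH, with all pellet libraries above, and differed by 0.90 (SE 0.085, adjusted p = 1.06e-09 by edgeR), after 0.79 at 3w and before 0.48 at 18m. Gria1 differed by 0.47, 0.48 and 0.44 at the 3 ages (adjusted p = 1.63e-06, 8.15e-07 and 2.06e-06 by edgeR), and Gria3 by 0.56, 0.32 and 0.35, all called. Gria2 differed by 0.57 at 3w (adjusted p = 9.77e-05 by edgeR), by 0.23 at 5m (adjusted p = 0.0714) and by 0.30 at 18m (adjusted p = 0.0216). The 18m call of Gria2 held in 6 of 12 alternatives. It was lost with library-size scaling (adjusted p = 0.0599 by edgeR), with at least 10 counts in every library, with all 48 libraries (adjusted p = 0.219) and without mouse 195, 196 or 198, while without GC and length trends the value was 0.58 (adjusted p = 1.27e-07). Cnih2 went the other way at 3w and 18m. It had 139, 164, 149 and 144 TMM CPM in input_TH at 3w and 97.0, 74.3, 111 and 94.7 in SC_TH, with no overlap, and differed by -0.64 (SE 0.096, adjusted p = 3.16e-06 by edgeR), by -0.20 at 5m (adjusted p = 0.0659) and by -0.56 at 18m (adjusted p = 8.59e-06).

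Of the 9 genes, 7 were called between SC_TH and input_TH at 3w (5 higher and 2 lower), 4 at 5m (all higher) and 7 at 18m (6 higher and 1 lower). Calls again covered much of the transcriptome, with 52.8%, 62.1% and 64.0% of 18416 genes called and 26.1%, 29.9% and 31.3% called higher. Whether the 9 genes differ from these shares was not tested. The median of the 9 was 0.28, 0.23 and 0.35, against -0.05, -0.05 and -0.01 over all genes. Shisa9 was on different sides, with -0.25 at 3w (adjusted p = 0.0279 by edgeR), 0.18 at 5m (adjusted p = 0.0718) and 0.36 at 18m (adjusted p = 0.000633). Its change between ages was not called, and the 3w call was lost in 5 of 12 alternatives: without GC and length trends (adjusted p = 0.0703 by edgeR), with all 48 libraries (adjusted p = 0.147) and without mouse 187, 188 or 190. The fit with the mouse as a block also called Gria2 at 5m (0.21, adjusted p = 0.0365 by edgeR). With trends on GC content and length removed, 6, 8 and 8 genes were called, where 53.7%, 60.8% and 65.5% of all genes were. Those called higher were then 5, 7 and 7 of the 9, and 31.7%, 36.4% and 39.2% of all genes. All 5 nuclear RNAs were lower in SC_TH at each age and all 6 astrocyte markers higher, and the median total count of SC_TH was 4448523 at 3w and 12328632 at 18m. Their part in the result was not tested.

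In synaptosomes the pellet differed from its input for few of the genes, and each of these was lower. Cacng2 had 206, 215, 181 and 195 TMM CPM in input_SYN at 3w and 132, 113, 129 and 136 in SC_SYN, with all pellet libraries below, and differed by -0.66 (SE 0.11, adjusted p = 0.000125 by edgeR). At 5m the difference was -0.52 (SE 0.1, adjusted p = 0.000853) and at 18m -0.45 (SE 0.1, adjusted p = 0.00465), and the groups did not overlap at either age. Cnih2 had 415, 360, 274 and 393 TMM CPM in input_SYN at 3w and 231, 114, 220 and 217 in SC_SYN, again with no overlap, and differed by -0.90 (SE 0.2, adjusted p = 0.00272 by edgeR). At 5m and 18m its values were -0.54 (adjusted p = 0.0524) and -0.52 (adjusted p = 0.0816). The counts called were 2, 1 and 1 of 9, where 18.5%, 20.0% and 12.6% of 14301 genes were called, and 9.50%, 10.3% and 6.70% called lower. The 4 pore-forming subunits lay between -0.16 and 0.40 and none was called, with intervals that reached 0.90 for Gria2 at 3w. Without trends on GC content and length 4, 2 and 2 genes were called, where 20.1%, 21.8% and 15.0% of all genes were. That added Gria2 (0.61, adjusted p = 0.00464 by edgeR) and Gria3 (0.39, adjusted p = 0.0158) as higher at 3w and Cnih2 as lower at 5m and 18m.

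**Figure D3:**
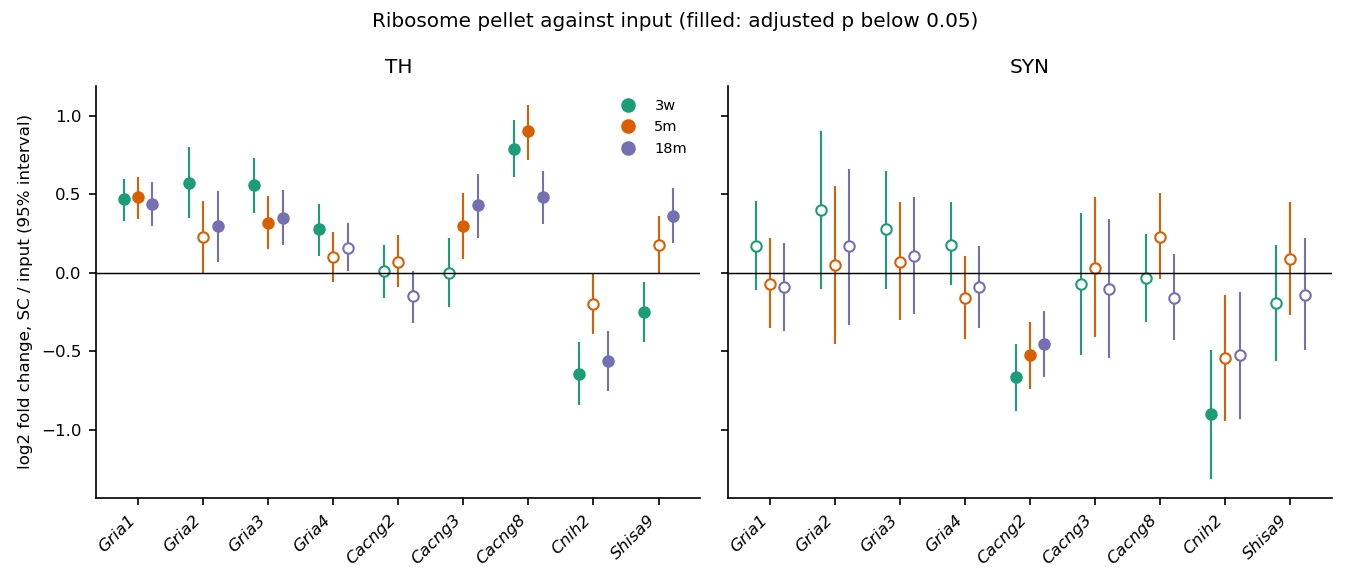
Log2 fold change of the ribosome pellet over input (y axis, with its 95% interval) for each gene (x axis) at 3 ages (colours), in TH on the left and in SYN on the right, with filled points for an adjusted p under 0.05. In TH the points of Cacng8 lie between 0.48 and 0.90 and those of Cnih2 between -0.64 and -0.20, and in SYN the filled points, those of Cacng2 and of Cnih2 at 3w, are below 0.

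Whether the pellet behaved differently in the 2 compartments was tested as an interaction, and the genes called were all less favoured by the pellet in synaptosomes. Cacng8 had interactions of -0.79 at 3w (SE 0.16, adjusted p = 0.000453 by edgeR), -0.64 at 5m (adjusted p = 0.00266) and -0.62 at 18m (adjusted p = 0.003). Cacng2 had -0.64 at 3w (adjusted p = 0.0006 by edgeR) and -0.57 at 5m (adjusted p = 0.00131), and Gria1 -0.51 at 5m (adjusted p = 0.0118) and -0.52 at 18m (adjusted p = 0.0106). That makes 2, 3 and 2 of 9, with 17.7%, 23.0% and 24.7% of 18112 genes called and 11.9%, 14.4% and 14.6% called lower. Under plain library-size scaling the calls over all genes were 7.93%, 10.9% and 12.0% higher and 9.62%, 11.4% and 11.7% lower, and the same counts of the 9 genes were called. The Gria1 call at 5m was lost without mouse 191, 192 or 193, with no filter on low counts and with at least 10 counts in every library. That at 18m was lost with at least 10 counts and without mouse 195, 196 or 197, and the Cacng8 call at 18m without mouse 195. The lowest counts without a mouse were thus 2 at 5m and 0 at 18m. Gria2, Gria3, Gria4, Cacng3, Cnih2 and Shisa9 were not called at any age in the main fit of this interaction. Shisa9 at 18m was called with the mouse as a block (-0.50, adjusted p = 0.0459 by edgeR). With trends on GC content and length removed, 3, 5 and 7 of the 9 genes were called, all lower, some of these genes among them at 5m and 18m. Over all genes, that setting called 22.9%, 29.3% and 32.1%, and 17.4%, 22.5% and 23.6% lower.

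Age was compared within each fraction, adult against young (5m against 3w) and old against adult (18m against 5m), and these contrasts share the 5m libraries. In input_TH, 2 of 9 genes were lower at 5m than at 3w, where 11.8% of 18078 genes were called. Cacng3, the TARP gamma-3 gene, had 65.5, 64.1, 66.4 and 64.5 TMM CPM at 3w and 46.2, 51.9, 52.4 and 53.8 at 5m, with every adult mouse below every young one, a difference of -0.36 (SE 0.056, adjusted p = 0.000455 by edgeR). Cnih2 had 139, 164, 149 and 144 at 3w and 122, 125, 123 and 122 at 5m, also without overlap, a difference of -0.28 (SE 0.065, adjusted p = 0.00876). Both calls held under plain library-size scaling, where 7.81% of all genes were called higher and 5.38% lower in place of 4.76% and 7.05%. Shisa9 had 50.8, 48.6, 47.3 and 47.8 at 3w and 40.7, 45.7, 45.2 and 45.2 at 5m, without overlap, but its difference of -0.14 missed the threshold (adjusted p = 0.108). The 6 oligodendrocyte markers were all lower at 5m, with sums from 5062 to 6307 TMM CPM at 3w and from 2009 to 2289 at 5m, and their part in the result was not tested.

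From 5m to 18m, 4 of 9 genes were called in input_TH, 3 higher and Gria2 lower, where 15.5% of genes were called. Cacng2 had 78.5, 84.6, 72.4 and 85.5 TMM CPM at 5m and 89.0, 110, 92.8 and 96.2 at 18m, a difference of 0.27 (SE 0.071, adjusted p = 0.0171 by edgeR). Cacng8 had 72.4, 74.1, 74.5 and 77.7 at 5m and 80.9, 96.5, 88.6 and 105 at 18m, a difference of 0.31 (SE 0.075, adjusted p = 0.0128), and Cnih2 rose from the values given above to 130, 156, 135 and 155 (0.23, SE 0.065, adjusted p = 0.0283). For these 3 genes the old mice were all above the adult ones. Gria2 had 411, 500, 516 and 478 at 5m and 427, 357, 434 and 361 at 18m, which overlapped, a difference of -0.27 (SE 0.076, adjusted p = 0.0263). These 4 calls depended on the processing. With trends on GC content and length removed none was kept, with values of 0.25 for Cacng2 (adjusted p = 0.0628 by edgeR), 0.02 for Cacng8 (adjusted p = 0.909), -0.05 for Cnih2 (adjusted p = 0.619) and 0.02 for Gria2 (adjusted p = 0.863), while 4.33% of all genes were then called. With all 48 libraries in a single fit none was called either, where 1.01% of all genes were. Under plain library-size scaling, Cnih2 was not called (0.17, adjusted p = 0.0505 by edgeR), and the calls over all genes were 5.51% higher and 11.4% lower in place of 8.18% and 7.35%. Both calls from 3w to 5m were kept without GC and length trends (-0.34 for Cacng3 and -0.20 for Cnih2) but not with all 48 libraries together. Over all genes, these settings called 12.8% and 4.20% from 3w to 5m.

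In SC_TH, Gria4 was the only gene of the 9 called between 3w and 5m, where 17.9% of 16427 genes were. It had 93.2, 101, 77.3 and 90.0 TMM CPM at 3w and 75.8, 80.2, 75.9 and 65.3 at 5m, which overlapped, a difference of -0.28 (SE 0.091, adjusted p = 0.0424 by edgeR). The call was absent in most alternatives, among them the removal of GC and length trends (-0.20, adjusted p = 0.0879), the fit of all 48 libraries (adjusted p = 0.0904) and the fit without mouse 187, 188, 190, 191, 193 or 194. Leaving out mouse 192 instead gave 4 genes. Between 5m and 18m none of the 9 was called in SC_TH, where 2.17% of the genes were, and the differences lay between -0.20 and 0.23.

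In synaptosomes none of the 9 genes was called with age in either fraction. Of 12975 genes in input_SYN, 3.22% were called between 3w and 5m and 0.139% between 5m and 18m, and of 14240 genes in SC_SYN 8.05% and 0.0140%. The calls between 3w and 5m in SC_SYN were 4.02% higher and 4.02% lower, and with library size 3.22% and 4.99%. At an unadjusted p under 0.05 these 4 contrasts held 2197, 1214, 3723 and 2474 genes. The differences of the 9 genes ran from -0.23 to 0.12 and from -0.54 to 0.09 in input_SYN, and from -0.46 to 0.46 and from -0.52 to 0.21 in SC_SYN. The intervals differed in width. That of Gria2 in SC_SYN between 3w and 5m ran from -0.93 to 0.12, and that of Cacng3 in input_SYN between 3w and 5m, from -0.64 to 0.18, held the -0.36 of input_TH. Between 5m and 18m in input_SYN, the intervals of Cacng2 (-0.22 to 0.22) and Cacng8 (-0.25 to 0.15) did not reach the 0.27 and 0.31 of input_TH. Tested directly, however, the difference of this change between compartments was not called for Cacng2 (-0.27, adjusted p = 0.268 by edgeR) or Cacng8 (-0.36, adjusted p = 0.11). Cnih2 in SC_SYN had 231, 114, 220 and 217 TMM CPM at 3w, 327, 267, 280 and 239 at 5m and 186, 212, 219 and 143 at 18m, with the adult mice above all others, but differences of 0.46 (adjusted p = 0.165 by edgeR) and -0.52 (adjusted p = 0.234). Cacng8 in SC_SYN had 289, 302, 445 and 318 at 3w, 571, 390, 398 and 452 at 5m and 337, 300, 299 and 375 at 18m. Its adult mice were above the old ones but overlapped the young ones (0.38 with adjusted p = 0.15, and -0.43 with adjusted p = 0.22 by edgeR). The fit of all 48 libraries, which shares the spread of the homogenate libraries, called Gria3, Gria4, Cacng8 and Cnih2 between 3w and 5m in SC_SYN and Cacng8 and Cnih2 between 5m and 18m (-0.47 with adjusted p = 0.00653, and -0.55 with adjusted p = 0.0259). Over all genes, that fit called 19.1% and 8.04% of 18112 in these 2 contrasts.

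**Figure D4:**
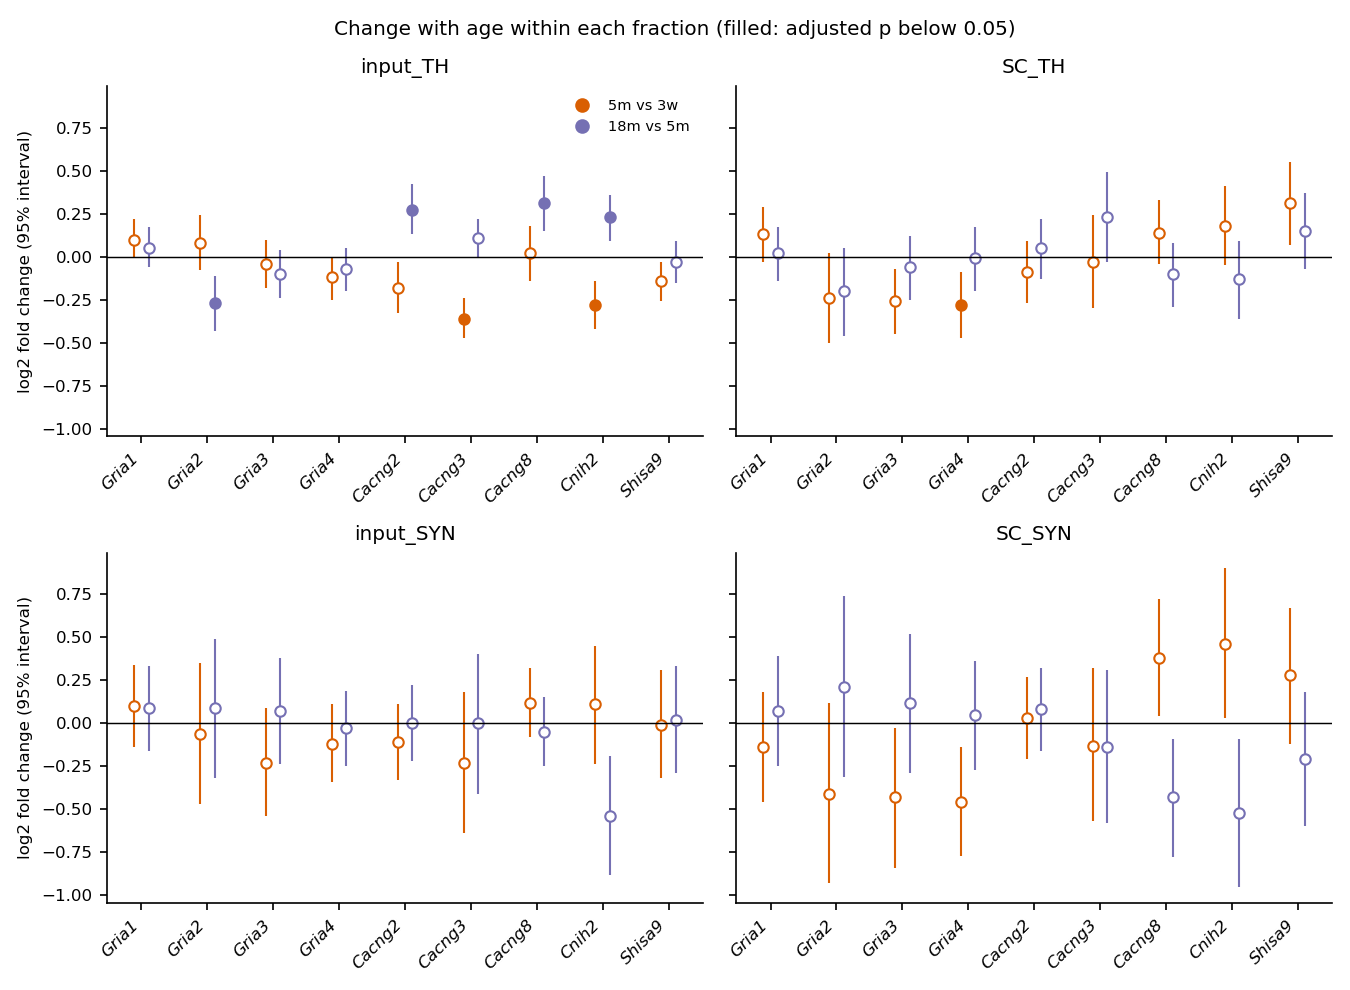
Log2 fold change with age (y axis, with its 95% interval) for each gene (x axis), 5m against 3w and 18m against 5m (colours), in the 4 fractions (panels), with filled points for an adjusted p under 0.05. Filled points are found in input_TH and for Gria4 in SC_TH, and the intervals are widest in SC_SYN.

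Whether age acted differently in synaptosomes and homogenate was tested by interactions, and a single gene of the 9 was called. In input_SYN Cnih2 had 420, 424, 347 and 398 TMM CPM at 5m and 259, 310, 173 and 357 at 18m (-0.54, adjusted p = 0.284 by edgeR), while it rose in input_TH as given above. The difference between the compartments was -0.75 (SE 0.19, adjusted p = 0.0367), where 2.42% of 17860 genes were called (1.01% higher and 1.41% lower, and with library size 2.37% and 1.12%). It was not called without mouse 191, 192, 193, 194, 195 or 196, with only the groups compared, with all 48 libraries together, or without GC and length trends (-0.28, adjusted p = 0.367). The block fit gave -0.79 (adjusted p = 0.00604). The other age-by-compartment contrasts called none of the 9. Over all genes, 0.0224% were called in input between 3w and 5m, 0.0301% in SC between 3w and 5m, and 0% in SC between 5m and 18m, with 1437, 1324 and 2855 genes at an unadjusted p under 0.05.

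The ratio of pellet to input was not called as changing with age for any of the 9 genes, in either compartment. In SYN, 0% and 0% of 14301 genes were called between 3w and 5m and between 5m and 18m, with 473 and 393 at an unadjusted p under 0.05. In TH, 2.33% and 1.78% of 18416 genes were called. The largest values for the 9 genes in TH were 0.44 for Cnih2 between 3w and 5m and -0.42 for Cacng8 between 5m and 18m. Both were called by DESeq2 (0.46 with adjusted p = 0.0212, and -0.44 with adjusted p = 0.0227), as was Shisa9 between 3w and 5m (0.44, adjusted p = 0.0197).

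Levels of Gria2 and Cnih2 moved against each other between mice of the same group, most often in synaptosomes. In SC_SYN at 3w, mouse 188 had 2432 TMM CPM of Gria2 and 114 of Cnih2, and mouse 187 had 1098 and 231. In SC_SYN at 18m, mouse 198 had 2177 and 143, and mouse 197 had 1057 and 219, whereas in input_SYN at 18m mouse 197 was the high one, with 1710 and 173, and mouse 198 had 1016 and 357. The same animal thus stood at opposite ends in its 2 synaptosomal libraries. In each of the 12 groups the mouse with the most Gria2 also had the most Gria3. The mouse with the most Gria2 had the least Cnih2 in 5 of the 6 synaptosomal groups and in 2 of the 6 homogenate groups. Over all genes with at least 5 TMM CPM in every group, the level in SC_SYN at 3w relative to the group mean changed by -0.314 on the log2 scale per 10 percentage points of GC in mouse 188 and by 0.226 in mouse 187, and in input_SYN at 18m by -0.256 in mouse 197 and 0.193 in mouse 198. These slopes move with the levels of the long, GC-poor Gria2 and the short, GC-rich Cnih2, and their part in the spread was not tested. Leaving out any single mouse kept all 9 genes called higher in SYN at each age in both input and SC.

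**Figure D5:**
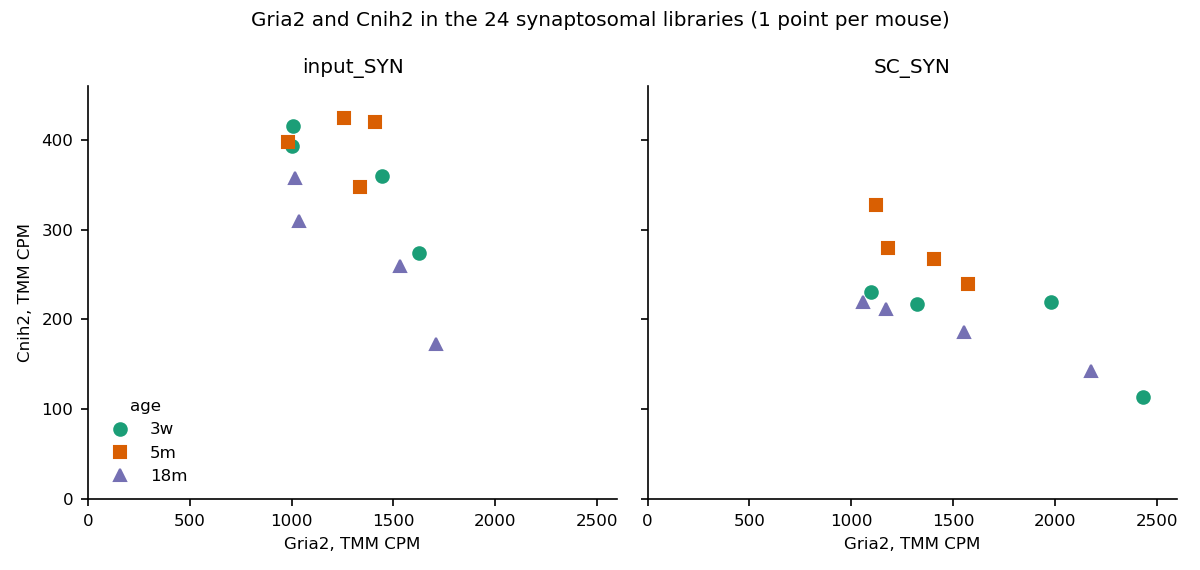
Level of Cnih2 (y axis, TMM CPM) against that of Gria2 (x axis, TMM CPM) in input_SYN (left) and SC_SYN (right), with 1 point per mouse and colours and symbols for age. Within an age the points run from upper left to lower right in SC_SYN, from 1098 and 231 to 2432 and 114 at 3w.

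The proteins that assemble, anchor or modify the receptor were taken as a list of 33 further genes, all of which were tested. In input_SYN against input_TH, 25, 26 and 26 of 33 were higher and 5, 5 and 6 lower at the 3 ages, and in SC 22, 22 and 21 were higher and 5, 7 and 5 lower. Over all genes tested, 31.7%, 32.6% and 32.9% were called higher and 39.3%, 40.1% and 39.4% lower in input, and 31.1%, 32.1% and 29.9% higher and 32.4%, 35.8% and 32.2% lower in SC. The counts moved with the scaling of the libraries. Under plain library-size scaling 19, 21 and 19 partners were higher and 9, 9 and 8 lower in input, and 18, 17 and 12 higher and 11, 11 and 11 lower in SC. All 7 extracellular partners, the neuronal pentraxins (Nptx1, Nptx2, Nptxr), olfactomedins (Olfm1, Olfm2, Olfm3) and Nrn1, were higher in SYN in all 6 contrasts, although with library-size scaling the SC calls of Nrn1 at 5m and 18m and of Olfm2 at 18m were lost. Nptxr, the pentraxin receptor that gathers AMPA receptors at synapses, had 2969 ± 236 TMM CPM in input_SYN and 571 ± 30.0 in input_TH at 5m (difference 2.38, SE 0.083, adjusted p = 2.11e-19 by edgeR). Gsg1l, a further auxiliary subunit, was higher by 2.13 there, and Frrs1l, which takes part in receptor assembly in the endoplasmic reticulum, by 2.05 at 18m. The 9 intracellular partners, PDZ proteins and others such as Grip1, Pick1, Dlg4 and Nsf, were divided, with 3 higher and 5, 5 and 6 lower in input and 2 higher and 5, 6 and 5 lower in SC. Adarb1, which edits the Gria2 mRNA, was higher in input_SYN at each age and not called in SC. Its differences in input were 0.22, 0.37 and 0.24, smaller than the shift of 0.57 that TMM made between compartments relative to library size. The direction of these differences thus rests on the scaling.

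With age, 12 of 33 partners were called in input_TH between 3w and 5m (3 higher and 9 lower) and 7 between 5m and 18m (4 and 3). Over all genes, 11.8% were called in the first (4.76% higher and 7.05% lower) and 15.5% in the second (8.18% and 7.35%). None of the 7 was called between 5m and 18m with GC and length trends removed or with all 48 libraries together, and the 12 were then 9 and 5. Over all genes, these settings called 4.33% and 1.01% between 5m and 18m, and 12.8% and 4.20% between 3w and 5m. Nptx2 fell by 0.59 on the log2 scale in input_TH between 3w and 5m, from 52.5 ± 6.67 to 35.0 ± 3.68 TMM CPM (adjusted p = 0.0034 by edgeR), Olfm2 by 0.55 and Cacng4, a further TARP, by 0.54. Between 5m and 18m, Sacm1l, listed with the genes of assembly in the endoplasmic reticulum, fell by 0.32, Sdcbp fell by 0.28 and Cacng7 rose by 0.27. In SC_TH, 10 were higher and 2 lower at 5m than at 3w, where 9.48% of all genes were higher and 8.46% lower. With all 48 libraries together 5 of 33 were called there, and 11.0% of all genes. In the main fit the changes in SC_TH were led by Nptx1, which rose from 357 ± 33.9 to 522 ± 43.8 TMM CPM (0.55, adjusted p = 0.000434 by edgeR). Porcn rose by 0.47 there and Nrn1, which encodes neuritin, fell by 0.47, and Sdcbp was the only partner called in SC_TH between 5m and 18m (0.31, adjusted p = 0.0458). Nptx1 and Nrn1 were the 2 partners called in synaptosomes, and each was called between 3w and 5m in both fractions. Nptx1 rose from 1004 ± 59.9 to 1365 ± 39.5 TMM CPM in input_SYN (0.41, adjusted p = 0.00962 by edgeR) and from 1068 ± 76.4 to 1485 ± 149 in SC_SYN (0.43, adjusted p = 0.0275), the latter call being lost without GC and length trends. Nrn1 fell from 257 ± 12.6 to 196 ± 10.4 in input_SYN (-0.42, adjusted p = 0.0127) and from 203 ± 17.1 to 134 ± 15.9 in SC_SYN (-0.64, adjusted p = 0.00277). Between 5m and 18m no partner was called in either synaptosomal fraction. The SC_SYN counts rose with all 48 libraries together. They were then 11 higher and 2 lower between 3w and 5m, where 11.2% of all genes were higher and 7.91% lower. Between 5m and 18m they were 1 higher and 5 lower, where 3.42% of all genes were higher and 4.62% lower.

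Over the 12 group means, the genes whose levels (log2 CPM) ran most like Gria1 were Grm5, which encodes a metabotropic glutamate receptor, M6pr and Plxna4, with Pearson's r of 0.998, 0.997 and 0.997. For Gria2 they were Tmem87a (0.996), Acsl3 (0.995) and Epha7 (0.994), for Gria3 Selenof (0.997), Acsl3 (0.997) and Epha7 (0.996), and for Gria4 Ptprg (0.995), Scn3a (0.995) and Selenof (0.994). Such values were common, since 1837 of the 9320 genes compared had r above 0.9 with Gria1. The 12 points share mice, and most of the variation along them is that between TH and SYN.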

How the data were processed

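RNA was sequenced from 48 libraries of the cortex of 12 mice. Per the labels and the study's methods, the authors prepared rRNA-depleted, strand-specific libraries with UMI adaptors, mapped single-end reads to GRCm38 with TopHat2 2.1 after bcl2fastq 2.20.0.422, and counted reads per gene with featureCounts, ignoring strand. Whether duplicates were removed by UMI, and which of the sequencing runs held a library, is not given in the sources used here. The deposited values are these raw counts per gene, without normalization, for 48526 genes, of which 48144 had a symbol in GENCODE.

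Counts were tested with edgeR 4.0.16 in R 4.3.3 (glmQLFit and glmQLFTest) after TMM scaling and filterByExpr, with Benjamini-Hochberg adjustment over all genes tested and a threshold of 0.05. Age was fitted within a fraction over 12 libraries, SYN against TH and SC against input over 24 libraries, and their difference over 48. Standard errors came from the quasi-likelihood F. Each group held 4 mice, which are separate animals, and their counts differed by more than sampling noise (chi-square over degrees of freedom 1.96 to 30). The 4 libraries of a mouse come from 1 animal, so the number pairs them. Their deviations from the group means had correlations from -0.373 to 0.355 (median 0.0761), and the mouse as a block was an alternative. The fits were repeated with DESeq2 1.42.0, under plain library-size scaling, without the filter on low values, after keeping genes with 10 or more counts in each library, with the compared groups alone, with the 48 libraries together, after removing GC and length trends by loess (span 0.5), and without each mouse in turn. All 9 genes are named. Of 33 partner genes, up to 3 are named per comparison of ages or compartments, those with the largest change at an adjusted p under 0.05, no overlap between groups and 50 or more counts on average in the group where the gene is higher. For each Gria gene the 3 protein-coding genes with the highest correlation over group means are named, among those with at least 5 TMM CPM in every group. The genes and lists were chosen with earlier results of these data known. The code was checked on counts drawn with known changes. The lowest count of any of the 9 genes in a library was 137.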

Additional observations from a re-analysis of the deposited data

Results flagged for a closer look

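Of 108 combinations of a gene and a group of 4 mice, 4 held a mouse that stood apart from the other 3 by Dixon's ratio (the gap to the nearest mouse over the whole range against the 95% critical value for 4 samples), and chance alone gives about 1 in 20, or 5.4. Cnih2 in SC_SYN at 3w was at 114 TMM CPM in mouse 188 and between 217 and 231 in the others (ratio 0.881). Cacng2 in input_SYN at 5m was at 158 in mouse 193 and between 197 and 201 in the others (0.899). Shisa9 was at 40.7 in mouse 191 and between 45.2 and 45.7 in the others in input_TH at 5m (0.897), and at 46.7 in mouse 189 and between 37.7 and 38.4 in the others in SC_TH at 3w (0.925).

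A difference of differences was called for 8 combinations by edgeR. The change of pellet over input was smaller in SYN than in TH for Cacng8 at 3w (-0.79), 5m (-0.64) and 18m (-0.62), for Cacng2 at 3w (-0.64) and 5m (-0.57), and for Gria1 at 5m (-0.51) and 18m (-0.52), all on the log2 scale. The change of Cnih2 from 5m to 18m was lower in input_SYN than in input_TH (-0.75).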

How the results depend on the processing

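Counts of the 9 genes called in SYN against TH stayed within 1.5 times under all alternatives. Other counts moved. With all 48 libraries in one fit, the count was 0 in both age contrasts of input_TH (2 and 4 as reported) and in SC_TH from 3w to 5m (1), 4 and 2 in the SC_SYN age contrasts (0), 2 in SC_SYN against input_SYN at 5m and at 18m (1), 2 in SC_TH against input_TH at 5m (4), and 0 for the age-by-compartment interaction of input from 5m to 18m (1). Over all genes, in the same order, this fit called 4.20%, 1.01%, 11.0%, 19.1%, 8.04%, 23.2%, 15.7%, 54.4% and 0.425%. Without GC and length trends, the count was 0 in input_TH from 5m to 18m, 0 in SC_TH from 3w to 5m and 0 for that interaction, 4, 2 and 2 in SC_SYN against input_SYN, 8 in SC_TH against input_TH at 5m, and 5 and 7 for the pellet-by-compartment interaction at 5m and 18m (3 and 2). Over all genes, in the same order, 4.33%, 15.6%, 0.151%, 20.1%, 21.8%, 15.0% and 60.8% were called, and 29.3% and 32.1% for the last interaction (23.0% and 24.7% as reported). With only the groups compared the count was 0 in SC_TH from 3w to 5m, 0 for the input interaction and 2 in SC_SYN against input_SYN at 5m. In SC_TH from 3w to 5m the count was 2 with library size, with at least 10 counts and with DESeq2. Library size called 17.9% of all genes there and DESeq2 18.2%. DESeq2 also gave 1 in SC_SYN from 3w to 5m (12.4% of all genes called) and 2 in SC_SYN against input_SYN at 5m (21.7%), and no filter gave 1 in input_SYN from 5m to 18m. The change of pellet over input with age in TH, 0 as reported, was 2 and 1 with no filter, with at least 10 counts and with DESeq2, and the pellet-by-compartment count at 18m was 1 with at least 10 counts.

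Leaving out each mouse gave 1 to 4 in input_TH from 5m to 18m, 0 to 4 in SC_TH from 3w to 5m, 0 to 1 for the input interaction, 1 to 2 in SC_SYN against input_SYN at 18m, 0 to 3 and 0 to 1 for the change of pellet over input in TH, and 0 to 2 for the pellet-by-compartment interaction at 18m. Of single values, 2 that were called reversed, both without GC and length trends in input_TH from 5m to 18m: Gria2 (0.02) and Cnih2 (-0.05). The mouse as a block moved 2 calls, Gria2 in SC_TH against input_TH at 5m (count 5) and Shisa9 in the pellet-by-compartment interaction at 18m (count 3), and no other. The causes were not tested. With the longest transcript as length, 69 of 84 shares moved by over 1 SD, and without any single mouse none did. In input_SYN, the shallowest fraction, 12975 genes passed the filter against 18078 in input_TH, and the part of depth in this was not tested.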
